A study of Homo sapiens with 38 samples.

Results

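Genes that carry, restrain or report Wnt signals were followed across all RNA-seq comparisons of human prostate epithelial lines made around the 7p15.2 prostate cancer risk region and HOXA13. The 9 genes are DKK1, DKK3, WLS, ZNRF3, RNF43, AXIN2, LEF1, TCF7L2 and CCND1. They were taken by symbol, through their Ensembl ids, from both expression tables, where each matched 1 of 60252 gene rows. The rule that matches them uses no measured value, but the genes were proposed with earlier results of these data known. Another 93 genes of the Wnt pathway were listed by role for comparison.

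Wnt proteins are lipid-modified ligands that need the carrier WLS to leave the cell and that bind Frizzled and LRP receptors on the next. Without ligand, a complex built on AXIN and APC marks beta-catenin for destruction, and with ligand beta-catenin enters the nucleus and works with LEF1 and the TCF factors. The pathway is restrained at several levels: DKK1 is secreted and blocks LRP5 and LRP6, ZNRF3 and RNF43 are membrane ubiquitin ligases that remove Frizzled receptors, and AXIN2 is both an inhibitor and a widely used target gene. DKK3 is a secreted relative of DKK1 known as a marker lost in prostate tumours, and CCND1 (cyclin D1) drives entry into the cell cycle and is a target of several pathways besides Wnt.

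RWPE-1 cells are immortalized normal prostate epithelium and form no tumours, while C4-2B cells are a cancer line of the LNCaP lineage. In RWPE-1, 7 libraries carried a deletion of the 7p15.2 risk region and 5 were controls of wild-type genotype, and both groups are labelled as treated by genome editing. Also in RWPE-1, 3 flasks received a HOXA13 expression vector and 3 the matching plasmid with eGFP, all of wild-type genotype. The 10% of cells with the strongest eGFP signal were sorted from each flask 48 hours later, so they stand for strongly transfected cells early after transfection. In C4-2B, 3 deletion lines (m, le5 and ld9) and 3 control lines of wild-type genotype gave 3 libraries each. C4-2B is tetraploid, so editing took a pair of rounds, and the full deletion clones descend from 2 colonies. The lines may therefore share a parent, and libraries of a line share its clone. The labels leave unstated whether RWPE-1 libraries are separate clones, and p-values in that line then measure only a spread that may be technical.

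Values are TPM, transcript shares corrected for transcript length, so levels can be set beside each other between genes. HOXA13 itself was at 1.16 ± 0.709 TPM in RWPE-1 controls (SD, n = 5), 8.03 ± 1.63 TPM after the deletion (SD, n = 7), 2.67 ± 1.01 TPM with eGFP (SD, n = 3) and 748 ± 83.5 TPM with the vector (SD, n = 3), and at 0.807 to 1.64 TPM in the means of the 6 C4-2B lines. The authors' deposited table called HOXA13 lower with the deletion in C4-2B, at a log2 fold change of -0.52 (adjusted p = 0.00626). All 8 basal markers, KRT5 and KRT14 among them, exceeded 1 TPM on average in RWPE-1. In C4-2B all 11 luminal markers did so, and so did 3 of the 8 basal markers, KRT14 among them at line means of 1.78 to 3.87 TPM. The 8 basal markers summed to 13.4 to 22.4 TPM in C4-2B libraries, against 7724 to 17905 TPM in RWPE-1 libraries. KRT5 was listed at or near 0 in C4-2B. Of the 11 luminal markers, 6 reached 1 TPM on average over all RWPE-1 libraries. Between 13661 and 15256 genes reached 1 TPM in a library, and no pair within a table had fewer than 23993 genes with unequal values. Number 1 of C4-2B control line 3 stood apart, with 28.4% of its TPM in mitochondrially encoded genes against 10.8% to 16.6% in the other C4-2B libraries. In these bulk samples a lower level in every cell and fewer cells of a kind cannot be told apart.

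The promoters of the 3 genes that the results turn on most are printed here, because a TCF/LEF motif in them is a place to look for a feedback of the pathway on its own regulators. RefSeq promoter windows (GRCh38.p14, 250 bases before to 50 after a start site) were given for 5 of the 9 genes, in 9 windows. The TCF/LEF motif was searched as CTTTG followed by AA, AT, TA or TT on both strands, and 13.8% of 35116 promoters hold at least 1 of these. The capitals mark matches. DKK1 lies on the plus strand at chr10:52314031-52314330, WLS on the minus strand at chr1:68232474-68232773 and LEF1 on the minus strand at chr4:108166252-108166551.
DKK1: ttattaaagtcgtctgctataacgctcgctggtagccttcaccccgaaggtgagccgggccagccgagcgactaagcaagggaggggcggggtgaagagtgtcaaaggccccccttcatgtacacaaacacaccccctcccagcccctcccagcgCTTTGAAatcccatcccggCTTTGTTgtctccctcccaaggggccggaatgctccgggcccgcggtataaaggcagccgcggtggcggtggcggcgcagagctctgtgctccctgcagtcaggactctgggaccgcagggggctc
WLS: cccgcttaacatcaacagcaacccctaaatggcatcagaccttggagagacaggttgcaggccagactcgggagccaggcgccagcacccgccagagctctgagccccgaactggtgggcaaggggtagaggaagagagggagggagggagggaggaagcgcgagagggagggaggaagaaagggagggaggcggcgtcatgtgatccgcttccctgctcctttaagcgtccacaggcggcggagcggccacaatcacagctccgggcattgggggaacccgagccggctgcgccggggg
LEF1: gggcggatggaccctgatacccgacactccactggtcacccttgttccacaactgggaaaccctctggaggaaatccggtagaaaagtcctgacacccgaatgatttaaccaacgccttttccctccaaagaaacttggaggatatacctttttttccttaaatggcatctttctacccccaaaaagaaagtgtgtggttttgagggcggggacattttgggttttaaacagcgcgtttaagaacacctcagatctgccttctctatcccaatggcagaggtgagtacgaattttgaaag
The DKK1 window holds CTTTGAA 95 bases and CTTTGTT 76 bases before the start site. These letters do not occur in the WLS or LEF1 windows shown. Start sites for which no window was given were not searched. Of the other windows, 1 of 3 of TCF7L2 holds CTTTGTT 133 bases before its start site. CAATAAA, a motif of the HOX13 factors that 4% of all promoters hold, was found in none of the 9 windows. A match describes letters only, and the motif variants overlap in their first 5 bases.

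Of the 9 genes, DKK1 alone passed the test with deletion in RWPE-1, a call lost under 13 of 18 alternative settings or left-out libraries. None passed the test with forced HOXA13 or between C4-2B deletion and control lines. A gene was tested where enough libraries reached 1 TPM, and was called at a limma adjusted p under 0.05 over all genes tested. In RWPE-1 deletion 7 of the 9 were tested and 1 was called, against a background of 10.3% of 14186 genes (6.46% higher, where the 1 member lies, and 3.86% lower). With forced HOXA13, 8 were tested and 0 called, in a comparison where limma called 0.0135% of all genes (2 of 14814, with 2002 at an unadjusted p under 0.05) and where 2 of the 8 had an unadjusted p under 0.05. Between C4-2B lines 6 were tested and 0 called, with 0% of 14820 genes called (529 at an unadjusted p under 0.05, 1 of the 6 among them). The authors' deposited tables, made with DESeq2, called 2 of 8 of the genes with an adjusted p in RWPE-1 deletion, 1 higher and 1 lower, against 17.4% of all genes there (7.98% higher, 9.37% lower). With forced HOXA13 the authors' deposited table called 2 of 7, 1 in each direction, against 12.1% (2.43% higher, 9.64% lower). In C4-2B the authors' deposited table called 3 of 7, 2 higher and 1 lower, against 8.56% (4.34% higher, 4.22% lower). The labels do not state whether that C4-2B test took libraries or lines as replicates.

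**Figure D1:**
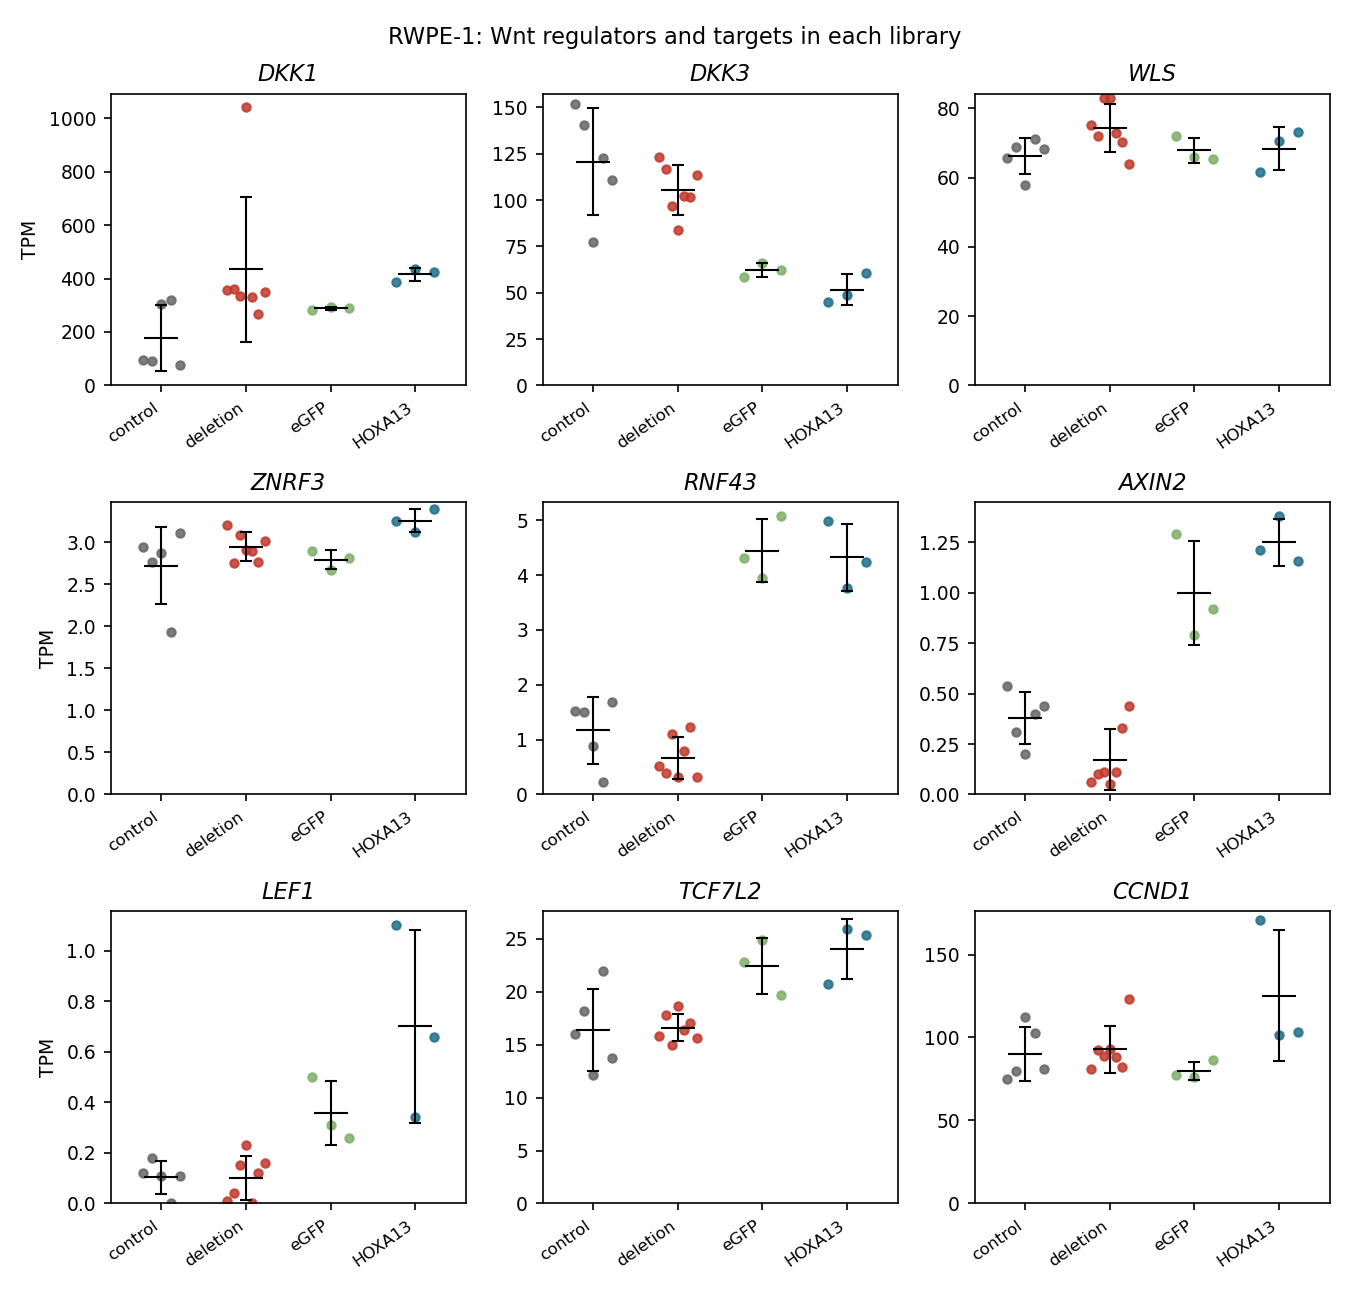
TPM of the 9 genes in each RWPE-1 library. Points are libraries, in the groups control (n = 5), deletion (n = 7), eGFP (n = 3) and HOXA13 (n = 3); the bar and whiskers give the mean and SD, and each panel has its own axis from 0. DKK1 reached 1043 TPM in 1 deletion library, and 3 of 5 controls sat below 100 TPM.

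DKK1 (ENSG00000107984.9_1, chromosome 10) was among the strongly expressed genes of the set in RWPE-1. The controls read 95.2, 89.8, 306, 318 and 74.9 TPM. The deletion libraries ran from 266 TPM through a median of 351 TPM to 1043 TPM in library 4. Controls 1, 2 and 5 were low, while controls 3 and 4 exceeded deletion library 6, the lowest, so the groups overlap. In this comparison 6.7% of all genes have groups that do not overlap. DKK1 rose with deletion by 1.43 on the log2(TPM + 1) scale (SE 0.420, limma adjusted p = 0.0480), with means of 435 ± 270 TPM (SD, n = 7) and 177 ± 124 TPM (SD, n = 5). An exact two-sided permutation test over the 792 arrangements gave p = 0.0101. The authors' deposited table called DKK1 higher as well, at a log2 fold change of 0.72 (adjusted p = 0.0486).

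The call for DKK1 sat at the threshold. Leaving out any of the 7 deletion libraries, or control 1, 2 or 5, ended it, with the difference between 1.19 and 1.71 and the limma adjusted p between 0.0185 and 0.110 over all 12 such fits. Without deletion library 4 the difference was 1.19 (limma adjusted p = 0.0644). In that library other genes of chromosome 10 were high as well: the 40 tested genes nearest to DKK1 departed from their control mean by a median of 0.46 on the log2 scale there, and by 0.09 to 0.16 in the other 6 deletion libraries. The 40 neighbours of TCF7L2, on the same chromosome, stood at 0.61 in deletion library 4 and at 0.02 to 0.17 in the others. The part of this shift in the DKK1 value was not tested. The 3 low controls differed from the other controls in DKK1 but not in its neighbours, which lay between -0.10 and 0.05 in all 5 controls.

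With forced HOXA13, DKK1 read 389, 436 and 424 TPM, against 282, 293 and 290 TPM with eGFP. All 3 HOXA13 flasks lay above all 3 eGFP flasks, as did 21.1% of all genes tested in 1 direction or the other. The difference was 0.53 (SE 0.0591) with an unadjusted limma p of 3.73e-05 and an adjusted p of 0.138. With 3 against 3 the exact permutation p cannot go below 0.1, the value DKK1 had. The authors' deposited table called DKK1 higher, at a log2 fold change of 0.34 (adjusted p = 1.84e-04). The eGFP flasks themselves, at 288 ± 5.22 TPM (SD, n = 3), lay below controls 3 and 4 of the deletion series and above the other 3 controls. The effects of deletion and of forced HOXA13 on DKK1 differed by 0.90 (SE 0.629, limma adjusted p = 0.450). That test of the difference called 0 of 8 tested members and 4.11% of all genes (2.62% higher and 1.48% lower), with 3308 genes and 2 members at an unadjusted p under 0.05.

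DKK3 (ENSG00000050165.17_1, chromosome 11) passed the limma test in neither the deletion nor the HOXA13 comparison. Controls read 152, 140, 77.6, 123 and 111 TPM, and deletion libraries ran from 83.7 through 102 to 123 TPM. The groups overlap, and the difference was -0.17 (SE 0.147, limma adjusted p = 0.490). HOXA13 flasks read 44.9, 49.1 and 60.9 TPM and eGFP flasks 58.2, 66.1 and 62.2 TPM, a difference of -0.27 (SE 0.119, limma adjusted p = 0.378). The authors' deposited table called DKK3 lower with forced HOXA13, at a log2 fold change of -0.28 (adjusted p = 0.0209). In C4-2B, DKK1 was listed above 0 in 1 of 18 libraries (0.18 TPM in line m) and DKK3 in 2 of 18 (0.10 TPM in control line 2 and 0.04 TPM in line le5), and neither was tested there.

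**Figure D2:**
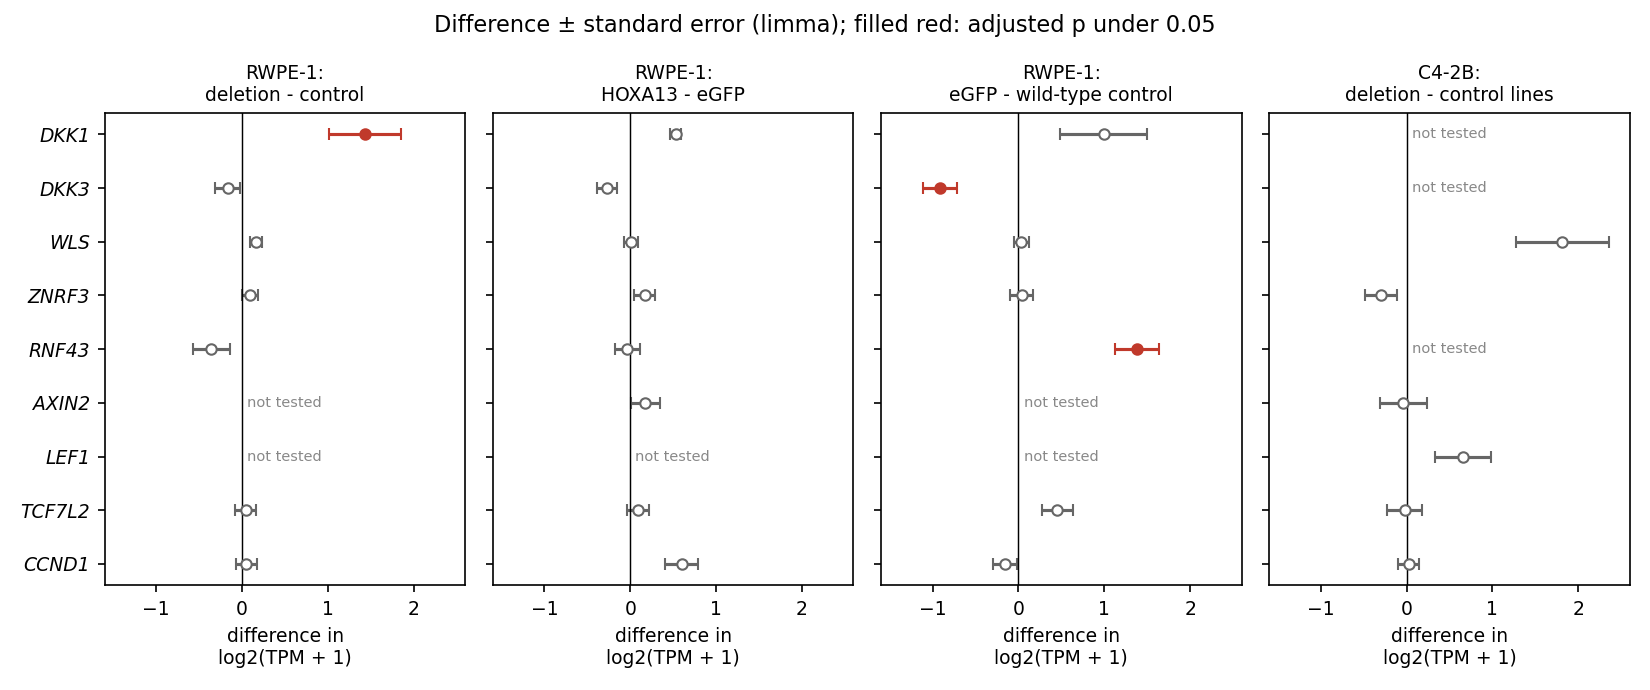
Difference in log2(TPM + 1) with its standard error for the 9 genes in 4 comparisons, from limma; filled red points passed an adjusted p of 0.05. DKK1 passed with deletion, DKK3 and RNF43 passed between eGFP-transfected cells and wild-type controls, and no point is filled with HOXA13 or in C4-2B.

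CCND1 (ENSG00000110092.3_1, chromosome 11) read 171, 101 and 104 TPM with forced HOXA13 and 77.4, 76.4 and 86.4 TPM with eGFP. The groups do not overlap, as for 21.1% of all genes tested, and HOXA13 flask 1 lay far above the other 2. The difference was 0.60 (SE 0.194, limma adjusted p = 0.294), and without HOXA13 flask 1 it was 0.35 (limma adjusted p = 0.205). The authors' deposited table put CCND1 at a log2 fold change of 0.13 (adjusted p = 0.612). Flask 1 also differed in luminal genes. The pioneer factor FOXA1 stood at 25.4 TPM there, against 2.66 and 3.45 TPM in flasks 2 and 3, and the prostate antigen gene KLK3 at 1.15 TPM, against 0.19 and 0 TPM. Over the whole list of 11 luminal markers the summed level was 1243 TPM in flask 1, 1034 and 858 TPM in flasks 2 and 3, and 874 to 964 TPM with eGFP. The 8 basal markers summed to 7724 to 8223 TPM in HOXA13 flasks and 8001 to 8385 TPM in eGFP flasks. The part of these genes in the CCND1 value was not tested.

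Elsewhere in RWPE-1, CCND1 did not pass a test. Controls read 75.0, 79.5, 112, 103 and 80.9 TPM, and deletion libraries ran from 81.0 through 88.9 to 123 TPM, the highest in library 7. The difference was 0.05 (SE 0.120, limma adjusted p = 0.832). Deletion and forced HOXA13 effects on CCND1 differed by -0.55 (SE 0.234, limma adjusted p = 0.192). In C4-2B, CCND1 had the highest TPM of the 9 genes, with line means of 136 to 165 TPM in control lines and 139 to 162 TPM in deletion lines and a difference of 0.02 (SE 0.119, limma adjusted p = 0.993).

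ZNRF3 and RNF43, the ligases that clear Frizzled receptors, were expressed at a few TPM or less. ZNRF3 (ENSG00000183579.15_2, chromosome 22) read 2.94, 2.76, 2.87, 1.93 and 3.11 TPM in RWPE-1 controls and 2.75 to 3.21 TPM after the deletion, with a median of 2.91 TPM. Control 4 was the low one, and its 40 neighbours were also low there, at a median of -0.31 from the control mean, while the remaining 4 controls lay at 0.05 to 0.13. The difference was 0.09 (SE 0.0929, limma adjusted p = 0.551). ZNRF3 read 3.25, 3.12 and 3.40 TPM with HOXA13 and 2.90, 2.67 and 2.81 TPM with eGFP. Those groups do not overlap, as for 21.1% of all genes tested. The difference of 0.17 (SE 0.126) had a limma adjusted p of 0.587.

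RNF43 (ENSG00000108375.12_2, chromosome 17) read 1.52, 1.51, 0.89, 0.23 and 1.69 TPM in controls and 0.31 through 0.51 to 1.22 TPM after the deletion. The groups overlap widely, at a difference of -0.36 (SE 0.215, limma adjusted p = 0.306), and the authors' deposited table gave -0.70 (adjusted p = 0.0505). HOXA13 flasks (4.98, 3.77 and 4.23 TPM) and eGFP flasks (4.31, 3.95 and 5.08 TPM) overlap too, and both groups lay above every control and deletion library.

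AXIN2 (ENSG00000168646.12_2, chromosome 17), the feedback inhibitor, stayed below the 1 TPM filter in the deletion comparison. Controls read 0.54, 0.31, 0.20, 0.40 and 0.44 TPM and deletion libraries 0.05 through 0.11 to 0.44 TPM, so the groups overlap. An exact two-sided permutation test gave p = 0.0354, and limma without the filter gave -0.24 (SE 0.0894, adjusted p = 0.186). The authors' deposited table called AXIN2 lower, at -1.10 (adjusted p = 3.06e-04). With HOXA13, AXIN2 read 1.21, 1.38 and 1.16 TPM, against 1.29, 0.79 and 0.92 TPM with eGFP, a difference of 0.18 (SE 0.171, limma adjusted p = 0.677).

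RNF43 and AXIN2 both lie on chromosome 17, on stretches that differed between RWPE-1 libraries. The 40 neighbours of RNF43 had a median difference of -0.24 with deletion, and those of AXIN2 one of -0.22, against 0.05 for all genes. By library, the neighbours of RNF43 lay between -0.29 and -0.20 in all 7 deletion libraries, at -0.26 and -0.30 in controls 1 and 2, and between 0.12 and 0.28 in controls 3 to 5. Those of AXIN2 lay between -0.32 and -0.11 in deletion libraries, at -0.19 and -0.32 in controls 1 and 2, and between 0.12 and 0.29 in controls 3 to 5. Among the controls, RNF43 had 1.52 and 1.51 TPM in controls 1 and 2, and ran from 0.23 TPM in control 4 to 1.69 TPM in control 5. AXIN2, under the filter, had 0.54 and 0.31 TPM in controls 1 and 2 and 0.20, 0.40 and 0.44 TPM in controls 3 to 5. The part of these stretches in the AXIN2 and RNF43 values was not tested.

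**Figure D3:**
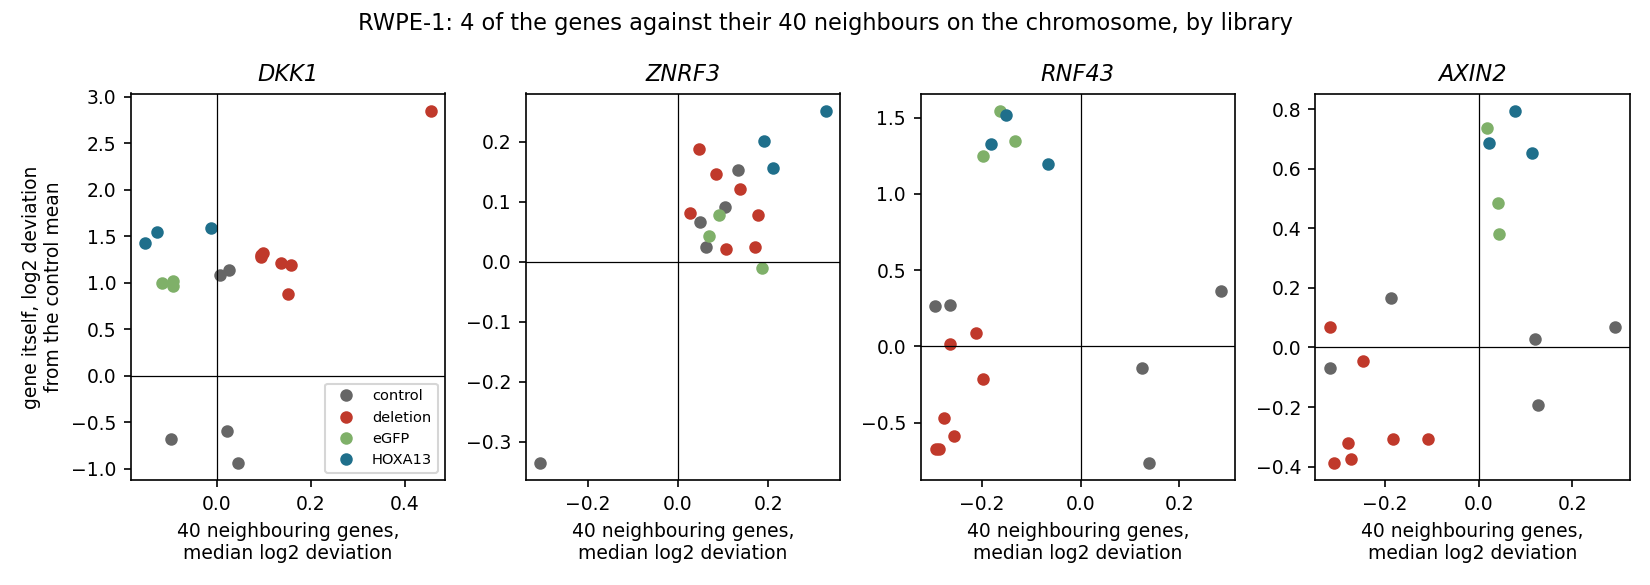
Log2 deviation of DKK1, ZNRF3, RNF43 and AXIN2 from the control mean (vertical axis) against the median log2 deviation of their 40 nearest tested genes (horizontal axis), 1 point for each RWPE-1 library. Deletion library 4 is the point at the upper right for DKK1, with neighbours at 0.46, and control 4 the point at the lower left for ZNRF3, with neighbours at -0.31.

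LEF1 and TCF7L2 are DNA-binding partners of beta-catenin, and in RWPE-1 TCF7L2 was the abundant one. TCF7L2 (ENSG00000148737.16_2, chromosome 10) averaged 16.4 ± 3.87 TPM in controls (SD, n = 5), 16.6 ± 1.28 TPM after the deletion (SD, n = 7), 22.5 ± 2.65 TPM with eGFP (SD, n = 3) and 24.0 ± 2.83 TPM with HOXA13 (SD, n = 3). It differed by 0.04 (SE 0.120, limma adjusted p = 0.856) with deletion and by 0.09 (SE 0.125, limma adjusted p = 0.776) with HOXA13. LEF1 (ENSG00000138795.9_1, chromosome 4) was listed at 0 to 0.18 TPM in controls and 0 to 0.23 TPM after the deletion and was not tested there. It read 1.10, 0.34 and 0.66 TPM with HOXA13 and 0.50, 0.31 and 0.26 TPM with eGFP, the highest again in HOXA13 flask 1. Those groups overlap.

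WLS (ENSG00000116729.13_2, chromosome 1), the carrier of Wnt ligands, did not pass a test in RWPE-1. Group means were 66.3 ± 5.19 TPM in controls (SD, n = 5), 74.3 ± 6.87 TPM after the deletion (SD, n = 7), 67.8 ± 3.67 TPM with eGFP (SD, n = 3) and 68.4 ± 6.08 TPM with HOXA13 (SD, n = 3). All 4 groups overlap in range. The deletion difference of 0.16 (SE 0.0739) had a limma adjusted p of 0.179, and the difference with HOXA13 was 0.01 (SE 0.0863, limma adjusted p = 0.975).

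Sorted, transfected cells differed from the wild-type controls of the deletion series in DKK3 and RNF43. Transfection, sorting and experiment cannot be told apart in this comparison, in which 47.1% of 15066 genes were called (24.4% higher and 22.7% lower) and 2 of 7 tested members, 1 in each direction. DKK3 fell by 0.91 (SE 0.196, limma adjusted p = 0.00515), from 121 ± 28.8 TPM (SD, n = 5) to 62.2 ± 3.91 TPM (SD, n = 3), and RNF43 rose by 1.38 (SE 0.258, limma adjusted p = 0.00262), from 1.17 ± 0.606 TPM (SD, n = 5) to 4.45 ± 0.577 TPM (SD, n = 3). AXIN2, at 1.00 ± 0.259 TPM, and LEF1, at 0.357 ± 0.127 TPM (SD, n = 3), lay above all controls but under the filter. Of all genes tested, which leaves out these 2, 48.6% had groups that do not overlap. Limma without the filter gave 0.53 for AXIN2 (SE 0.117, adjusted p = 0.0119) and 0.30 for LEF1 (SE 0.0713, adjusted p = 0.0184). DKK1 differed by 0.99 (SE 0.506, limma adjusted p = 0.137). Basal markers summed to 8001 to 8385 TPM in eGFP flasks against 9836 to 17905 TPM in controls. Luminal markers summed to 874 to 964 TPM in eGFP flasks against 330 to 701 TPM in controls, also without overlap. The part of either list in these values was not tested.

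Among the 93 other pathway genes, changes with deletion in RWPE-1 ran in both directions. Of 53 tested, 8 were called, or 15.1% against 10.3% of all genes, 4 higher and 4 lower, with a median difference of 0.02 against 0.05 for all genes. The authors' deposited table called 19 of 67, 8 higher and 11 lower, against 17.4% of all genes there. Leaving out control 3 gave 14 limma calls, and leaving out deletion library 3 or 6 gave 5. WNT7B, a ligand, rose by 1.09 (SE 0.213, limma adjusted p = 0.00678), from 2.13 ± 0.474 TPM (SD, n = 5) to 5.97 ± 2.92 TPM (SD, n = 7). Its deletion libraries ran from 3.81 to 12.5 TPM, highest in library 4, and its controls from 1.48 to 2.79 TPM. These groups do not overlap, as for 6.7% of all genes tested. SFRP1, a secreted Wnt binder, rose by 0.75 (SE 0.199, limma adjusted p = 0.0297), from 211 ± 71.2 TPM (SD, n = 5) to 336 ± 13.4 TPM (SD, n = 7), and its controls ran from 99.6 to 274 TPM. KREMEN2, a receptor for DKK proteins, rose by 0.59 (SE 0.143, limma adjusted p = 0.0196), from 3.12 ± 1.12 TPM (SD, n = 5) to 5.04 ± 0.339 TPM (SD, n = 7). LGR4, an R-spondin receptor, rose by 0.40 (SE 0.103, limma adjusted p = 0.0263), with 10.4 to 16.1 TPM in controls and 14.5 to 20.3 TPM after the deletion. SFRP1 and KREMEN2 were 2 of the 3 tested genes listed as secreted inhibitors and their receptors. Of 10 tested Frizzled, LRP and related receptors 0 were called, and no R-spondin passed the filter.

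The 4 called lower were JUN, TCF7, APC and CSNK1A1. JUN, a subunit of AP-1, fell by 0.74 (SE 0.201, limma adjusted p = 0.0353), from 32.0 ± 6.48 TPM (SD, n = 5) to 19.2 ± 6.01 TPM (SD, n = 7), with overlap. TCF7, a further partner of beta-catenin, fell by 0.56 (SE 0.101, limma adjusted p = 0.00410), from 10.2 ± 0.808 TPM (SD, n = 5) to 6.63 ± 1.04 TPM (SD, n = 7). APC, the scaffold of the destruction complex, fell by 0.40 (SE 0.0756, limma adjusted p = 0.00562), and CSNK1A1, a kinase of that complex, also fell by 0.40 (SE 0.0494, limma adjusted p = 4.62e-04). TCF7, APC and CSNK1A1 all lie on chromosome 5, and their neighbours were lower too: the 40 nearest tested genes had median differences of -0.48, -0.38 and -0.43, with 77.5%, 52.5% and 55.0% called. The part of this stretch in the 3 values was not tested. The calls for JUN, SFRP1 and LGR4 each ended without some single libraries, with a limma adjusted p up to 0.0800, 0.0588 and 0.0533 in turn.

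**Figure D4:**
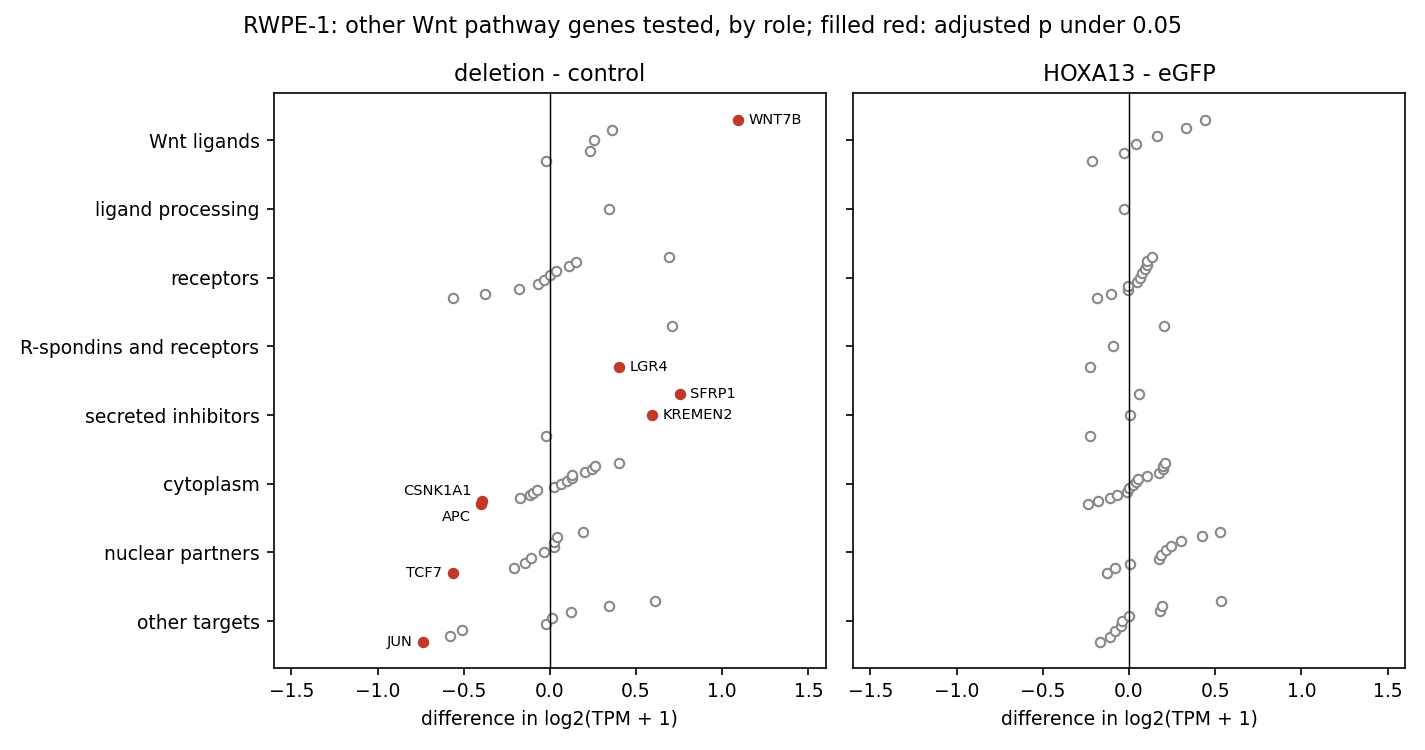
Difference in log2(TPM + 1) of the other Wnt pathway genes tested, by role, with deletion (left) and with forced HOXA13 (right). Filled red points passed an adjusted p of 0.05; the 8 on the left are named, and none is filled on the right.

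With forced HOXA13, 0 of 57 tested pathway genes were called by limma, with a median difference of 0.04 against 0.04 for all genes, and the differences ran from -0.24 to 0.54. Of all genes 0.0135% were called by limma. The authors' deposited table called 6 of 59, against 12.1% of all genes with an adjusted p in that table. WNT7B was called higher there at a log2 fold change of 0.50 (adjusted p = 0.00219). It read 3.45, 2.84 and 3.26 TPM with HOXA13 and 2.29, 2.11 and 1.86 TPM with eGFP, at a limma adjusted p of 0.294. These WNT7B groups do not overlap, as for 21.1% of all genes tested. SFRP1 was called lower there at -0.21 (adjusted p = 0.0166), and read 88.1, 99.0 and 103 TPM against 114, 112 and 111 TPM, at a limma adjusted p of 0.296. The other 4 in the authors' deposited table were GSK3B (-0.31, adjusted p = 0.00215) and the adhesion receptor CD44 (-0.23, adjusted p = 0.0106), called lower, and the co-repressor TLE2 (0.41, adjusted p = 0.0209) and the signal relay DVL2 (0.23, adjusted p = 0.0275), called higher. The test of the difference between the deletion and the HOXA13 effect called TCF7 alone, 1 of 61 tested against 4.11% of all genes, at -0.78 (SE 0.196, limma adjusted p = 0.0345, up to 0.0970 without single libraries). That count was 4 without control 3, 2 without control 5 or HOXA13 flask 1, and 0 without control 4, deletion library 3, HOXA13 flask 3 or eGFP flask 1.

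Between wild-type controls and eGFP flasks 29 of 60 tested pathway genes were called, 48.3% against 47.1% of all genes, 19 higher and 10 lower in eGFP flasks. Without eGFP flask 1 or 2 the count was 17 or 18. Those with the smallest adjusted p were ID2, RSPO4, FZD8, JUN, TLE1, GSK3A and AXIN1, higher, and APC, lower. JUN rose by 2.18 (SE 0.173, limma adjusted p = 3.58e-05), reading 150, 132 and 157 TPM in eGFP flasks. RSPO4, an R-spondin, read 5.71, 4.38 and 4.01 TPM in eGFP flasks and was listed at 0 in all 5 controls.

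WLS was the member called in the most pairs of C4-2B lines, 9 of 15, with LEF1, TCF7L2 and ZNRF3 next at 5 each. Control line 1 read 7.41, 7.61 and 8.59 TPM, control line 2 read 1.54, 1.12 and 1.54 TPM, and control line 3 read 0.70, 1.57 and 0.46 TPM. Deletion line m read 8.19, 8.62 and 10.9 TPM, line le5 read 9.59, 12.8 and 9.57 TPM, and line ld9 read 12.9, 11.9 and 16.1 TPM. Control lines 2 and 3 were low, and control line 1 came close to deletion line m, with which its libraries overlap. The line means do not overlap, at 3.39 ± 3.88 TPM for control lines (SD, n = 3) and 11.2 ± 2.25 TPM for deletion lines (SD, n = 3), as for 9.48% of all genes tested.

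With the line as replicate, WLS differed by 1.81 between deletion and control lines (SE 0.541), with an unadjusted limma p of 0.0113 and an adjusted p of 0.993. Taking all 18 libraries with the line as a correlated block gave a limma adjusted p of 0.0511. The authors' deposited table called WLS higher, at a log2 fold change of 1.95 (adjusted p = 0.0138). Leaving out control line 1 put the difference at 2.504 and leaving out control line 3 at 1.38, with limma adjusted p of 0.282 and 0.435. Within the wild-type lines alone WLS differed by 2.26 between the highest and the lowest line (limma F test over libraries, adjusted p = 0.00161). Such a range is not the same measure as the difference of means between genotypes. The widest gap between a deletion and a control line was 2.97, for line ld9 over control line 3. Within the deletion lines the range was 0.52 (adjusted p = 0.0890). These F tests and the pairs below compare the lines at hand against the spread of libraries within a line.

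Over the 15 pairs of lines, WLS was called in 9. Control lines 2 and 3 were each called lower than control line 1 (by -1.89 and -2.26, adjusted p = 2.87e-05 and 2.33e-06) and than every deletion line, and did not differ from each other at the threshold (-0.37, adjusted p = 0.144). Line ld9 exceeded control line 1 by 0.71 (adjusted p = 0.0442), while lines le5 and m did not pass against it (0.38 and 0.20, adjusted p = 0.333 and 0.740). Of all genes, 35.6%, 33.3%, 20.2%, 28.1% and 31.3% were called between control line 3 and control line 1, control line 2, line m, line le5 and line ld9. Against control line 1 the shares were 2.35% for control line 2, 3.91% for line m, 5.2% for line le5 and 4.92% for line ld9. Against control line 2 they were 5.82%, 4.89% and 4.55% for lines m, le5 and ld9, and among deletion lines 5.65% (m and le5), 5.41% (m and ld9) and 0.129% (le5 and ld9). The 40 neighbours of WLS on chromosome 1 lay between -0.14 and 0.20 from the mean of the control libraries in all lines.

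LEF1 marked a single deletion line. Line m read 9.23, 8.61 and 9.76 TPM, line le5 3.72, 3.04 and 3.79 TPM, and line ld9 3.48, 2.94 and 5.07 TPM. The control lines read 3.03, 4.58 and 3.09 TPM, 2.82, 3.42 and 2.17 TPM, and 2.37, 3.16 and 1.52 TPM. Every library of line m lay above every other library. The F test among deletion lines called LEF1 (range 1.18, adjusted p = 0.00186), and all 5 pairs with line m were called while the other 10 were not. Those 5 pairs had 3.91% to 20.2% of all genes called. Between genotypes LEF1 differed by 0.66 (SE 0.323, limma adjusted p = 0.993), and by 0.28 without line m. The authors' deposited table called it higher, at 0.73 (adjusted p = 0.0347). The 40 neighbours of LEF1 on chromosome 4 had a median difference of 0.22 between genotypes, against 0.07 for all genes. From the mean of the control libraries they stood at 0.15 to 0.25 in control lines 1 and 2. In control line 3 they stood at -0.56 to -0.38, in line m at 0.05 to 0.14, and in lines le5 and ld9 at 0.26 to 0.31. Their part in the LEF1 value was not tested.

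TCF7L2 went with control line 3, the line that differed most from the rest over all genes. Luminal markers summed to 2592 to 4643 TPM in this line and to at least 5035 TPM in every other C4-2B library, and their part in the values of this line was not tested. TCF7L2 read 15.2, 16.4 and 12.9 TPM there, against line means of 8.81 to 10.4 TPM in the other 5 lines. The 5 pairs with control line 3 were called and the other 10 were not. Of all genes, 20.2% to 35.6% were called in those 5 pairs, and 0.129% to 5.82% in the other 10. Among control lines the range was 0.69 (adjusted p = 0.0233), and leaving out single libraries took the adjusted p up to 0.0841. RNF43 was also called among control lines (range 0.78, adjusted p = 0.0383), at 1.59 ± 0.425, 0.663 ± 0.150 and 0.497 ± 0.123 TPM (SD, n = 3 libraries each), but that call held under only 1 of 13 alternatives (without library 1 of control line 3), with an adjusted p up to 0.145 when libraries were left out. The F tests among control lines called 3 of 7 members and 12.2% of all genes, and those among deletion lines 2 of 7 members and 19.2% of all genes. CCND1 was the second of these 2, at 162 ± 2.28 TPM in line m, 139 ± 3.47 TPM in line le5 and 145 ± 9.83 TPM in line ld9 (SD, n = 3 libraries each; range 0.21, adjusted p = 0.0375), and this call ended without 7 of the 9 single libraries (all but libraries 2 and 3 of line ld9).

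ZNRF3 was lowest in lines le5 and ld9 and in control line 3. Line means were 5.70, 6.19 and 4.24 TPM in control lines 1 to 3 and 4.90, 3.60 and 3.93 TPM in lines m, le5 and ld9. The genotypes overlap, at a difference of -0.30 (SE 0.183, limma adjusted p = 0.993), and the authors' deposited table called ZNRF3 lower at -0.31 (adjusted p = 0.00443). The pair contrasts called line le5 lower than control lines 1 and 2 (adjusted p = 0.0257 and 0.0109) and line ld9 lower than control line 2 (adjusted p = 0.0271). In these pairs 5.2%, 4.89% and 4.55% of all genes were called. The contrasts also called control line 3 lower than control lines 1 and 2 (-0.38 and -0.48, adjusted p = 0.0374 and 0.0135). There 35.6% and 33.3% of all genes were called. The 40 neighbours of ZNRF3 on chromosome 22 stood between -0.33 and -0.17 in all 6 libraries of lines le5 and ld9, from the mean of the control libraries. They stood between 0.01 and 0.06 in line m, and between 0.03 and 0.13 in control lines 1 and 2. In control line 3 they stood at -0.51, -0.03 and 0.03, so that its library 1 lay below every deletion library. Their part in the ZNRF3 value was not tested. AXIN2 was more abundant in C4-2B than in RWPE-1, with line means of 2.26 to 5.13 TPM, and differed by -0.04 between genotypes (SE 0.271, limma adjusted p = 0.995). Its level in control line 3 (1.46, 2.15 and 3.18 TPM) lay below that of control lines 1 and 2, which the pair contrasts called (-0.93 and -0.73, adjusted p = 0.00441 and 0.0173). These are again the pairs with 35.6% and 33.3% of all genes called.

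**Figure D5:**
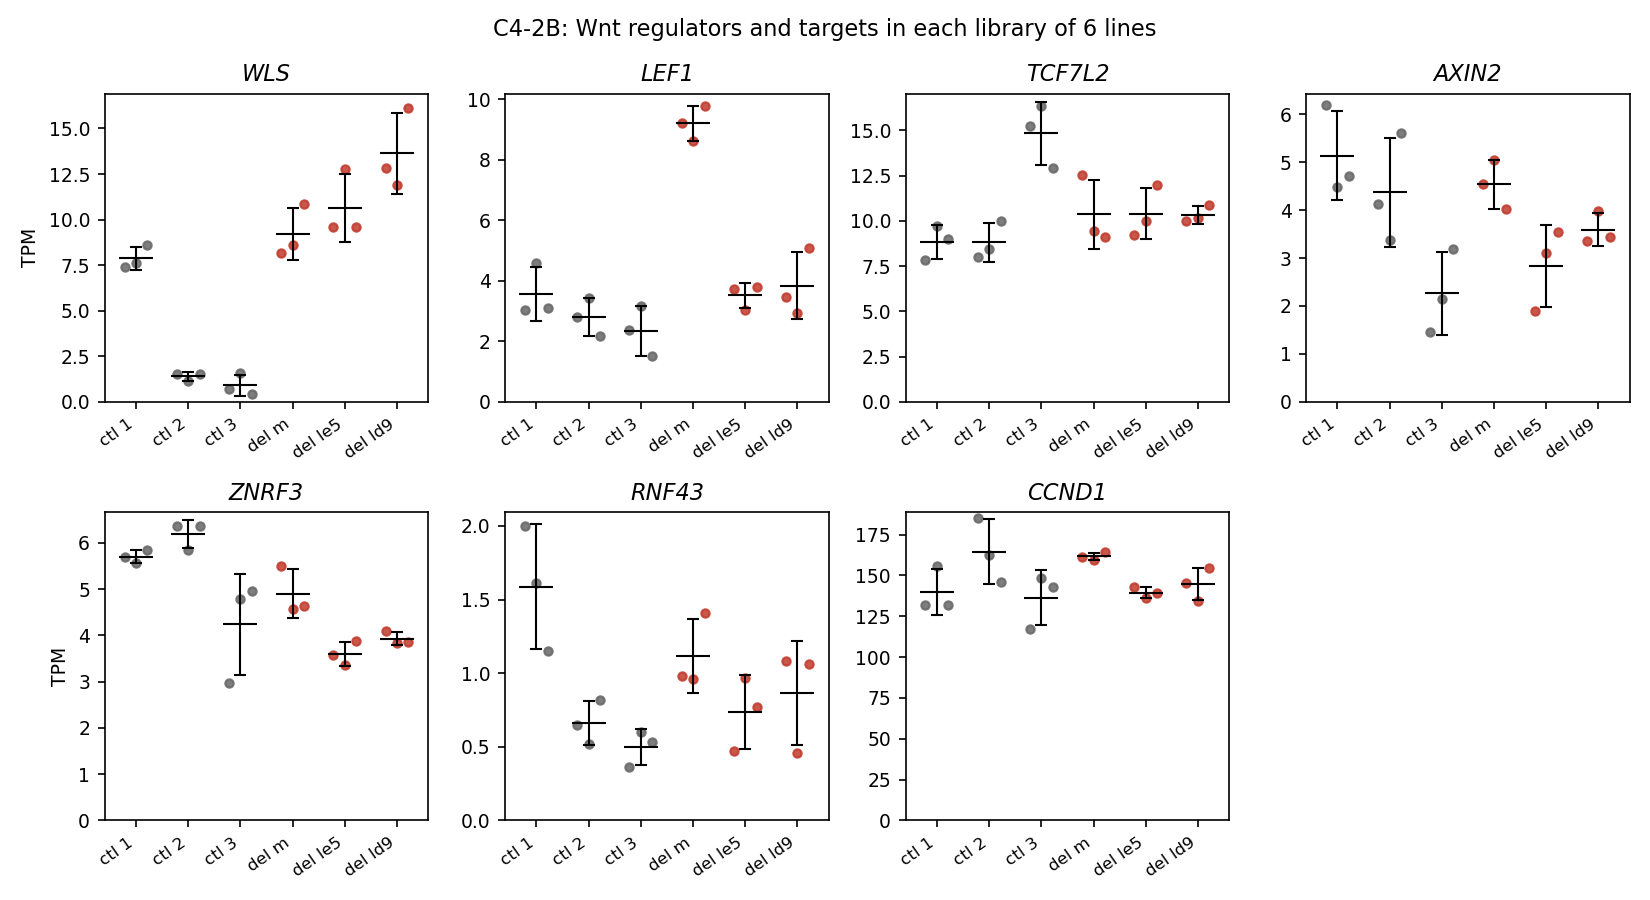
TPM of the 7 genes expressed in C4-2B, in each library of 3 control lines (grey) and 3 deletion lines (red). Points are libraries, the bar and whiskers give the mean and SD of 3 libraries, and each panel has its own axis from 0. WLS is low in control lines 2 and 3 alone, and LEF1 is high in line m alone.

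Of the 54 pathway genes tested between C4-2B genotypes 0 were called by limma, and the authors' deposited table called 5 of 64, against 8.56% of all genes there: TNKS (-0.32, adjusted p = 3.37e-08), WNT8B (-0.44, adjusted p = 0.00444) and FZD1 (-0.40, adjusted p = 0.0158) lower, and FZD6 (0.32, adjusted p = 0.0109) and PYGO1 (0.30, adjusted p = 0.0209) higher. Their limma adjusted p with the line as replicate was 0.993 in each case. Among control lines 6 of 55 were called, against 12.2% of all genes, with FZD4, a Frizzled receptor, first (range 1.23, adjusted p = 0.0136; mean 9.21 TPM in control line 3). That count was 22 without library 1 of control line 3, 5 without its library 3, and 1 or 2 without any other single library. Among deletion lines 11 of 52 were called, against 19.2% of all genes, with WNT7B first (range 0.62, adjusted p = 0.00255; mean 16.1 TPM in line m), and 5 to 9 with single libraries left out, the fewest without library 1 of line m.

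The levels order the 9 genes differently in the 2 cell lines. In RWPE-1 controls the means ran from DKK1 (177 ± 124 TPM), DKK3 (121 ± 28.8 TPM), CCND1 (90.1 ± 16.4 TPM) and WLS (66.3 ± 5.19 TPM) through TCF7L2 (16.4 ± 3.87 TPM) to ZNRF3 (2.72 ± 0.461 TPM), RNF43 (1.17 ± 0.606 TPM), AXIN2 (0.378 ± 0.129 TPM) and LEF1 (0.104 ± 0.0650 TPM; SD, n = 5). DKK1, DKK3 and CCND1 overlap in range, as neighbours in that order. In C4-2B control lines the order of means over 3 lines was CCND1 (147 ± 15.4 TPM), TCF7L2 (10.8 ± 3.47 TPM), ZNRF3 (5.38 ± 1.01 TPM), AXIN2 (3.92 ± 1.49 TPM), WLS (3.39 ± 3.88 TPM), LEF1 (2.91 ± 0.615 TPM) and RNF43 (0.916 ± 0.587 TPM; SD, n = 3 lines), with DKK1 and DKK3 at or near 0. There ZNRF3, AXIN2, WLS and LEF1 lay within the spread of the lines. The tables of the 2 cell lines come from separate experiments, and levels were not tested across them.

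The genes most like DKK1 over the 18 RWPE-1 libraries, by Pearson correlation of log2(TPM + 1) among 10740 genes with a mean of at least 5 TPM, were GPRC5A (r = 0.89), LINC00941 (0.89), CD55 (0.84), DUSP4 (0.83) and ID3 (0.83). GPRC5A averaged 7.10 TPM in controls, 17.8 TPM after the deletion, 20.7 TPM with eGFP and 28.4 TPM with HOXA13. For CCND1 they included DOHH (0.73), FOXRED1 (0.70), TUSC2 (0.68) and TCTA (0.67). For WLS, over the 18 C4-2B libraries and 10622 genes, they were MIOS (0.96), RNF216P1 (0.94), TENM1 (0.94), SNX13 (0.93) and ZFAND2A (0.92). These values describe libraries that share groups and lines. MIOS, RNF216P1, SNX13 and ZFAND2A lie on chromosome 7. MIOS averaged 35.3, 25.6 and 23.9 TPM in control lines 1 to 3, and 43.0, 39.0 and 42.8 TPM in lines m, le5 and ld9.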

How the data were processed

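RNA-seq of RWPE-1 and C4-2B was deposited as 2 tables of 18 libraries and 60252 genes each, in TPM. Per the submitters' processing notes, the tools named include Trimmomatic 0.35, STAR 2.5.2b, RSEM 1.3.0, featureCounts 1.5.1 and DESeq2 1.14.1, with the build GRCh37. Hi-C data were not analysed here. Which tool made which table is not given in the sources used here. Per the file headers, 3 deposited DESeq2 tables hold p-values, adjusted p-values and log2 fold changes made by the authors. They also hold, as the authors deposited them, a mean normalized signal per gene and scores (standard error and test statistic). Whether their fold changes are shrunken is not stated. For HOXA13 with the vector the deposited log2 fold change was 2.08, against a limma difference of 7.70. With deletion in RWPE-1 the same values were 2.19 and 2.09. Deposited fold changes and limma differences can therefore not be read as 1 measure of size. TPM carries no counts, so depth per library is unknown and no interval was computed.

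TPM was tested as log2(TPM + 1) with limma 3.58.1 in R 4.3.3 (eBayes with trend, two-sided, Benjamini-Hochberg over all genes tested). Differences are on that scale and understate changes of low genes. Genes with at least 1 TPM in as many samples as the smallest group were tested. C4-2B libraries were averaged within a line first. F tests among lines of a genotype used libraries. Members and lists were chosen with earlier results of these data known. Named were all 9 members, up to 8 called pathway genes in a comparison (or, where none was called, those the authors' table calls), 5 like genes each for DKK1, CCND1 and WLS, and HOXA13. FOXA1 and KLK3 were chosen after their values were seen. Some items that these rules name are not reported here. Neighbours are the 20 tested genes on each side in RefSeq order (GRCh38.p14, used for names, order and promoter sequences). Further marker lists were low: at most 22.7 TPM in sum for neuroendocrine, 23.3 for fibroblast, 2.43 for endothelial and 12.2 for immune markers in any library. Alternatives were another pseudocount (0.1), no filter, median-ratio and quantile scaling, all RWPE-1 libraries in 1 fit, a replicate block, a correlated line block, and leaving out each library or line. The procedure was tested on simulated data.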

Additional observations from a re-analysis of the deposited data

Results flagged for a closer look

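In 18 groups of 5 to 7 RWPE-1 libraries, 1 for each gene and genotype, gaps between libraries were taken on the log2(TPM + 1) scale. Of these groups, 3 held a library whose gap to the next exceeded the Dixon limit, and chance gives about 1 in 20. DKK1 had its highest deletion value, 1043.48 TPM, in library 4. CCND1 had its highest deletion value, 123.47 TPM, in library 7. ZNRF3 had its lowest control value, 1.93 TPM, in control 4.

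TCF7 had a deletion effect that differed from the effect of forced HOXA13 by -0.78 on the log2(TPM + 1) scale (SE 0.196, limma adjusted p = 0.0345). It read 5.11 to 7.99 TPM in deletion libraries, 9.39 to 11.4 TPM in controls, 11.5, 13.1 and 14.4 TPM with HOXA13 and 9.54, 9.54 and 14.6 TPM with eGFP. The call was lost under 9 of 23 alternatives. With deletion, the 40 neighbours of TCF7 on chromosome 5 had a median difference of -0.48, with 77.5% called. Their part in the TCF7 value was not tested.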

How the results depend on the processing

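Of 857 values of the 9 genes under alternative settings, 768 kept their direction and their side of the threshold, 40 kept the direction but lost the call, 5 gained one and 44 changed sign. WLS among C4-2B control lines and LEF1 among deletion lines kept their calls under all 13 alternatives run. With RWPE-1 deletion the count of members called was 0 under median-ratio scaling, without the filter and under quantile normalization, and 0 to 1 when single libraries were left out. The pathway list gave 13 calls there with all 18 libraries in 1 fit, 5 without the filter, 3 with the replicate block, and 5 (without deletion library 3 or 6) to 14 (without control 3) when libraries were left out. Against eGFP flasks members called were 4 without the filter and 2 to 4 with libraries left out (4 without control 4), and pathway calls 17 to 30. Among deletion lines 1 member was called without the filter and under quantile normalization, and 1 to 2 with libraries left out; among control lines it was 1 to 3.

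Signs changed only for differences that lay, as reported, between -0.05 and 0.10. Between C4-2B genotypes CCND1 was -0.0477 under median-ratio scaling and -0.00134 under quantile normalization (-0.0373 to 0.109 with libraries or lines left out), and in RWPE-1 deletion it was -0.00475 with the replicate block (-0.0220 to 0.131). TCF7L2 was -0.00388 and -0.00277 under the same scalings in RWPE-1 deletion (-0.0542 to 0.148), -0.137 to 0.208 in C4-2B and -0.148 to 0.0562 for the difference of effects. WLS was -0.00738 and -0.0106 against eGFP (-0.0139 to 0.0602) and -0.0316 and -0.00170 with HOXA13 (-0.0405 to 0.0822). ZNRF3 against eGFP was -0.140 under quantile normalization (-0.0471 to 0.0750), AXIN2 in C4-2B -0.313 to 0.154, DKK3 for the difference of effects -0.0450 to 0.227 and RNF43 with HOXA13 -0.120 to 0.0489.

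Over all genes, calls were 449 with the replicate block in RWPE-1 deletion, 131 with all 18 libraries in 1 fit for HOXA13, and 24 with all 18 libraries in C4-2B (10 with the replicate block added). The difference of effects gave 293 with the replicate block, and control lines 1014 under median-ratio scaling and 1046 under quantile normalization (635 to 4796 with libraries left out). Replicate numbers did not pair the samples: same-number correlations were -0.18 to 0.14 in the deletion series and -0.02 to 0.01 in the HOXA13 series. With the replicate block DKK1 differed by 1.57 with deletion (adjusted p = 0.0398) and by 0.53 with HOXA13 (adjusted p = 0.348), and WLS in C4-2B had an adjusted p of 0.106.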

Other observations

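The 119 tested genes of chromosome 7 that lie beyond HOXA13 toward the end of the short arm were looked at as a group, a choice made after the genes most like WLS had been seen. Their median log2 deviation from the mean of all C4-2B libraries was 0.22 in all 3 libraries of control line 1, -0.18 to -0.16 in control line 2, -0.80 to -0.36 in control line 3, and 0.08 to 0.21 over the 9 deletion libraries. The other tested genes stood at 0.07 to 0.09, 0.05 to 0.07 and -0.49 to -0.07 in the control lines and 0.00011 to 0.06 in the deletion libraries.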
